A study of Homo sapiens with 40 samples.

Results

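The genes described here lie on the distal short arm of human chromosome 7, between the end of the chromosome and IGF2BP3. A gene was taken when it is protein-coding, starts before the lowest coordinate of IGF2BP3 (23310209 on GRCh38) and has at least 10 mean counts over the 40 libraries. Of the 19962 genes in the count table, 124 meet the position and coding criteria and 75 of those also meet the count minimum. Removing 9 by symbol (those beginning SLC, ZNF, PSM, COL, RAB, COX, ITG, MRP or EIF, and PMS2 and RPA3) left 66 genes, called the members below. The other 49 genes of the region fell under the count minimum, 3 of which carry an excluded symbol as well, and of the remaining 46 there were 20 with no count in any library. All 66 members also passed the filter on low counts used for the tests. The members were chosen by position and mean count, at a time when the comparison of doxycycline with DMSO in the sgIGF2BP3 line was already known. All values from that comparison are therefore a description, given without a p-value.

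The libraries come from RKO, an established human colorectal carcinoma line, here carrying Cas9 under a doxycycline-inducible promoter together with GFP. Each of 3 derived lines also carried 2 guide RNAs and a blue fluorescent marker and was used as a sorted pool of marker-positive cells, with guides to IGF2BP3 (sgIGF2BP3), to IGF2BP2 (sgIGF2BP2) or to the control locus AAVS1 (sgAAVS1). Doxycycline (Dox, 250 ng/mL, 72 hours) switched Cas9 on in each line, and cells given the solvent DMSO were its control. Without Dox, sgIGF2BP3 cells received 75 nM of an siRNA pool against IGF2BP3 (siIGF2BP3) or a non-targeting siRNA (siControl) for 48 hours, and sgIGF2BP2 cells received an siRNA pool against IGF2BP2 (siIGF2BP2) or siControl. All 10 groups were given 250 µM of the uridine analogue s4U for 2 hours, and each has 4 libraries from separate wells. The p-values below measure the spread between these wells, which may be technical.

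IGF2BP3 and IGF2BP2 are RNA-binding proteins that bind many mRNAs and affect their stability and translation. The members are not one pathway. They are neighbours on a chromosome arm, and include the cytoskeletal gene ACTB, the small GTPase RAC1, and genes for membrane trafficking, transcription and mitochondria. Cas9 cuts both strands of DNA at its target. The stretch from IGF2BP3 to the chromosome end, which holds the members, is separated from the centromere while such a cut is open.

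The 2 guides of the sgIGF2BP3 line are shown because their sites mark where the members' stretch of the chromosome begins. Each is written 5′ to 3′ in lower case with the adjoining NGG motif that Cas9 requires in capitals, as found in GENCODE 29 transcripts (GRCh38), with the 2 closest other matches on chromosome 7.
IGF2BP3 guide 1 site: tggcaccgactgatagagctGGG
IGF2BP3 guide 2 site: gaagatactttctaggtccgAGG
Pseudogene match to guide 1: tgacaccgactgatagagccTGG
Pseudogene match to guide 2: gaagatactttctaggtccaAGG
The guide 1 site is at chr7:23319200-23319219 on the plus strand, in coding exon 11 of 15 of IGF2BP3, and its cut lies 9.0 kb above the gene's lowest coordinate. The guide 2 site is at chr7:23470045-23470064 on the plus strand, in coding exon 1, with its cut 159.9 kb above that coordinate. IGF2BP3 is on the minus strand, so both guides are antisense to it and the 2 cuts are 150.8 kb apart. Every member starts below both cuts, from chr7 position 497258 (PDGFA) to 23298739 (MALSU1).

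The other 2 sequences lie on the minus strand in AC092447.1, a processed pseudogene on the far side of IGF2BP3. Counting from 1 at the guide's 5′ end, the match to guide 1 at chr7:56597844-56597863 differs by G3A and T20C. The match to guide 2 at chr7:56597425-56597444 differs by G20A alone. Both pseudogene matches lie 33.3 Mb above the lowest coordinate of IGF2BP3 and are followed by NGG. Within the transcripts of 353 genes that start before IGF2BP3, the closest match with NGG to either IGF2BP3 guide had 6 mismatches of 20 bases, and to the AAVS1 guides 5. Introns and the space between genes were not searched, and cutting was not measured.

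The libraries held 10018181 to 24822807 counts each (median 13468792), and the members took up 1.00% of all counts. Levels are given as CPM, a gene's share of the library's counts on a fixed scale, with library sizes scaled by edgeR's TMM method. The epithelial genes EPCAM (12.3 to 16.0 CPM), KRT8 (41.6 to 76.5) and KRT18 (114 to 218) and the intestinal factor CDX2 (15.9 to 22.9) were present in every library. CDH1, KRT19, VIL1 and KRT20, also markers of gut epithelium, were at or near 0. Of the leukocyte, endothelial and fibroblast markers, CD68 was at 1.11 to 3.52 CPM in every library, and for PTPRC, CD3E, PECAM1, COL1A1, COL1A2 and DCN the highest value in any library was 1.10 CPM (COL1A1). The targeted gene IGF2BP3 was at 180 ± 4.1 CPM in sgIGF2BP3 DMSO and 56.2 ± 3.6 in sgIGF2BP3 Dox, and siIGF2BP3 left 24.7 ± 1.6 of the 170 ± 4.8 CPM in siControl (SD, n = 4). In the sgIGF2BP2 line IGF2BP3 was also lower after Dox, at 179 ± 9.2 CPM in DMSO and 151 ± 4.2 in Dox, without overlap. In the sgAAVS1 line it was at 172 ± 11.1 and 177 ± 5.2 CPM. The chi-square per gene between sgIGF2BP2 Dox replicate 2 and its 3 replicates was 11.6 to 16.3, so that library stood apart. So did sgIGF2BP2 siIGF2BP2 replicate 3, at 5.59 to 6.395 against 1.49 to 1.83 among the other 3 of its group. The fitted changes and tests of those 2 groups are also given without these libraries.

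In sgIGF2BP3 cells given Dox, most of the distal 7p genes were lower than in DMSO, and the median change was small. The SD of the change over members was 0.14, against 0.16 over all genes tested. The median log2 fold change of the 66 members was -0.15, a level of 89.9% of DMSO, against 0.0027 over the 11428 genes tested. The fitted change was below 0 for 58 of the 66 members, against 48.7% of all genes tested. The quartiles of the members were -0.20 and -0.07, and the extremes were UMAD1 at -0.41 and TSPAN13 at 0.34. UMAD1 is uncertain, since it shares 118 exon bases with RPA3 on the opposite strand. In 22 members (33.3%) all 4 Dox libraries were below all 4 DMSO libraries, which held for 4.59% of all genes tested. PDGFA and TSPAN13 were the 2 members with all 4 Dox libraries above all 4 DMSO libraries, beside 5.76% of all genes tested. RNA of pooled cells was measured, so fewer copies of the region, fewer cells that express a gene and less RNA per cell cannot be told apart.

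**Figure D1:**
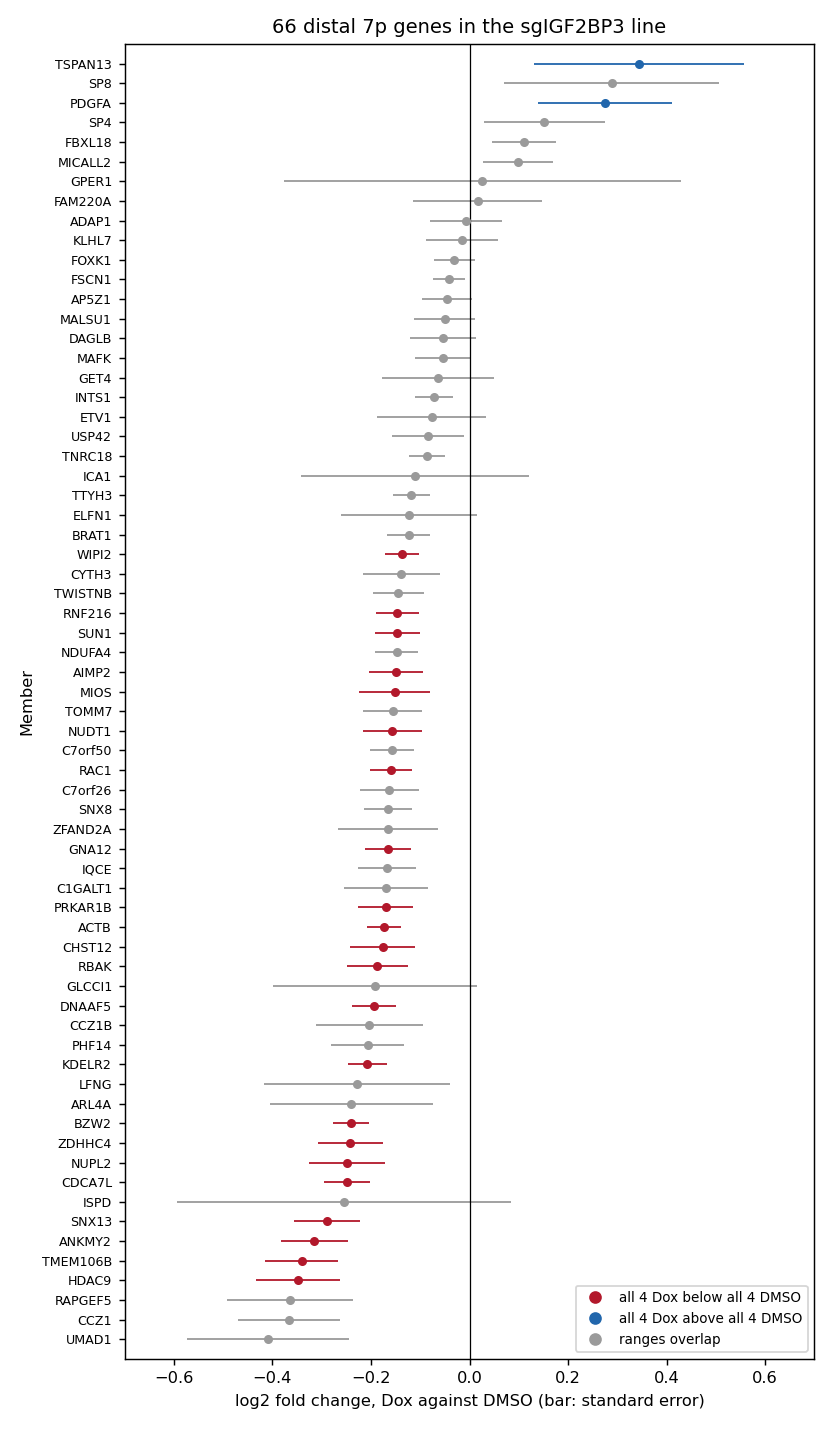
Fitted log2 fold change of Dox against DMSO in the sgIGF2BP3 line (x axis, bars are standard errors) for each of the 66 members (y axis, ordered by value). Points left of 0 are 58 of 66, and the 22 red points are members whose 4 Dox libraries were all below the 4 DMSO libraries.

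With edgeR's quasi-likelihood test and Benjamini-Hochberg adjustment over all genes at 0.05, 18 members were called lower (1.01% of all genes tested) and 0 higher (1.64%). DESeq2 called 20 lower and 0 higher, and its share of all genes tested was not taken. The 18 are DNAAF5, C7orf50, SNX8, GNA12, WIPI2, ACTB, RNF216, CCZ1, RAC1, KDELR2, ZDHHC4, NDUFA4, TMEM106B, ANKMY2, BZW2, SNX13, HDAC9 and CDCA7L. Without sgIGF2BP3 DMSO replicate 1 or without sgIGF2BP3 Dox replicate 4 the count was 11, and against a minimum change of 1.2-fold it was 0. These calls come from the comparison known when the members were chosen and support nothing.

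The spread between members was wider among genes with fewer counts. The 44 members with at least 300 mean counts had a median of -0.15 and an SD of 0.094 on the log2 scale, and 42 of them were below 0. All 7002 genes tested at that depth had an SD of 0.088 around a median of -0.004. The 22 members under 300 mean counts had the same median of -0.15 with an SD of 0.21, and 16 were below 0. Their median standard error was 0.13, against 0.06 for the deeper members. Of the 8 members above 0, FBXL18 (0.11) and MICALL2 (0.10) were the 2 with at least 300 mean counts. Across the 66 members the rank correlation of the fitted change with the mean count was 0.008, and genes are not independent replicates.

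Each Dox library of the sgIGF2BP3 line showed the same shift. For every library, the median over members of log2 CPM minus the gene's own mean over the 40 libraries was taken. The 4 sgIGF2BP3 Dox libraries were at -0.141, -0.115, -0.132 and -0.082. The other 36 libraries lay between -0.038 and 0.084, or 0.054 without sgIGF2BP2 Dox replicate 2, so the 4 were the lowest and did not overlap them. In replicates 1, 2 and 3 of sgIGF2BP3 Dox, 56 of 66 members were below their own mean, and in replicate 4 it was 45, against 22 to 37 in the other 36 libraries. Replicate 4 was thus the Dox library nearest the others.

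The summed level depended on 1 gene. ACTB made up more than the other 65 members together, and the members' sum with ACTB was 8973 to 9679 CPM in sgIGF2BP3 Dox and 9141 to 10621 in the other 36 libraries, which overlap. Without ACTB the sums were 3804, 3845, 3778 and 3973 CPM in sgIGF2BP3 Dox and 4083 to 4368 in the other 36, which do not overlap.

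**Figure D2:**
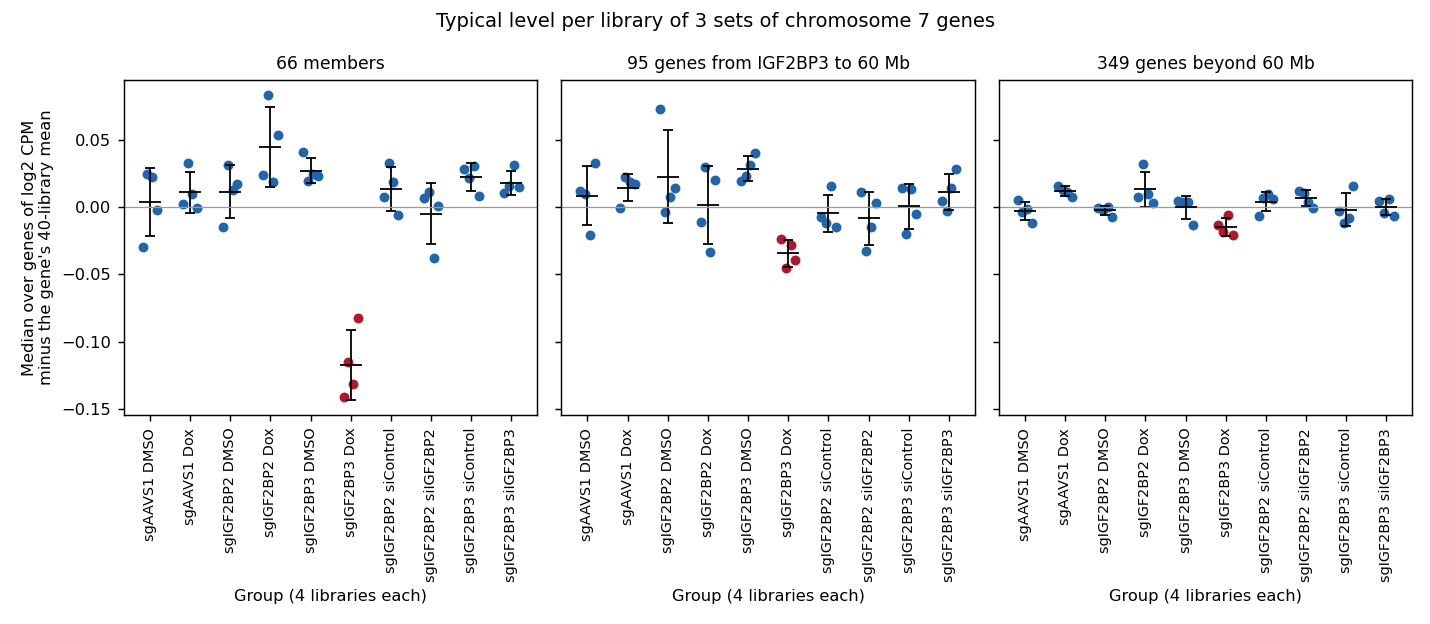
Median over genes of log2 CPM minus each gene's mean over 40 libraries (y axis) in each library of the 10 groups (x axis), for the members and 2 other stretches of chromosome 7; lines are group means with SD (n = 4). The red sgIGF2BP3 Dox libraries lie between -0.141 and -0.082 for the members, between -0.045 and -0.024 from IGF2BP3 to 60 Mb, and between -0.021 and -0.006 beyond 60 Mb.

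By position, the members' medians in the sgIGF2BP3 line lay farther below 0 than those of the genes on the other side of IGF2BP3. The 22 members nearest the chromosome end had a median of -0.13, the middle 22 a median of -0.15 and the 22 nearest IGF2BP3 a median of -0.20. Correlations were taken with the signed distance from IGF2BP3, negative towards the 7p end, so a negative value means lower changes nearer IGF2BP3. Across the 66 members the rank correlation was -0.26 and Pearson's r was -0.08, and over the 44 deeper members they were -0.28 and -0.30. The 9 genes left out by name had a median of -0.14, and 8 of 9 were below 0. On the other side of IGF2BP3, the 95 protein-coding genes with the same count minimum that start before 60 Mb had a median of -0.08, with 72 below 0. There the 53 genes up to 40 Mb and the 42 genes from 40 to 60 Mb had medians of -0.07 and -0.08. In sgAAVS1 Dox these 2 stretches were at 0.09 and -0.05, and the members' classes from the chromosome end at -0.04, -0.02 and 0.06. For sgIGF2BP2 Dox the stretches were at -0.01 and -0.02, and the classes at 0.05, 0.05 and -0.02. Medians of stretches thus also moved by up to 0.09 with guides to another locus. Beyond 60 Mb, the 349 genes of the rest of chromosome 7 had a median of -0.009, with 190 below 0.

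The share of genes with all 4 Dox libraries below all 4 DMSO libraries followed the same order, at 33.3% of members, 15.8% of the 95 genes up to 60 Mb and 6.30% of the 349 beyond. The last of the 95 starts at 56.1 Mb and the first of the 349 at 64.5 Mb, so no gene with at least 10 mean counts places the change between the 2 values more closely. That gap holds the 60 Mb limit taken here between the short and long arms, and also the pseudogene matches of the guides. The part of either in these values was not tested. The medians of the other 22 chromosomes with genes tested ran from -0.038 (chromosome 13) to 0.038 (chromosome 19), and all of chromosome 7 was at -0.042. Those of the members and of the 95 genes were both below that range, but stretches of similar size on other chromosomes were not compared.

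**Figure D3:**
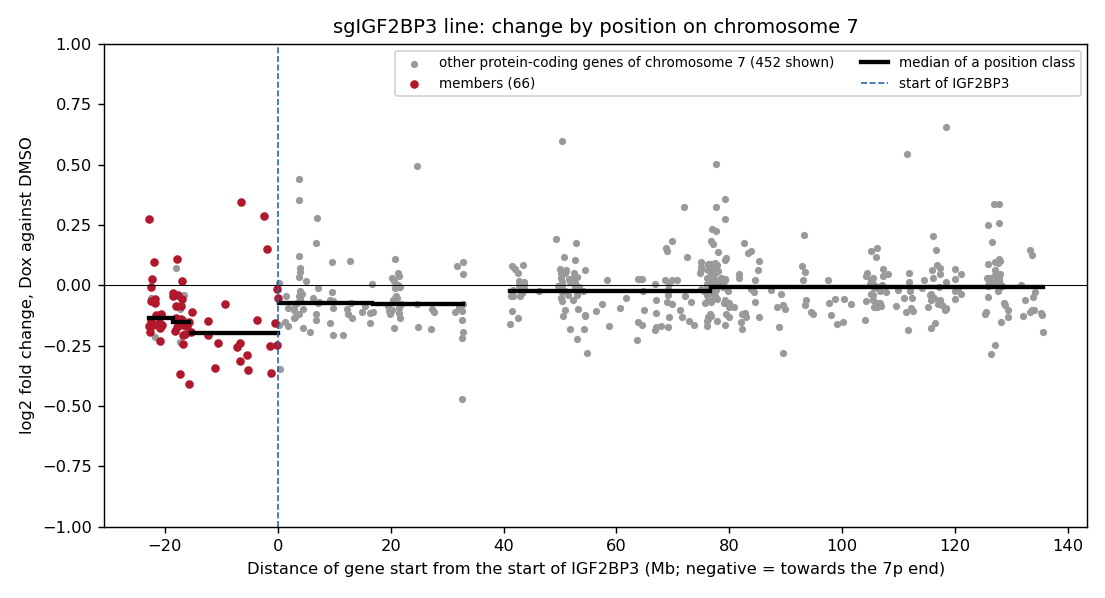
Log2 fold change of Dox against DMSO in the sgIGF2BP3 line (y axis) against distance of the gene start from the lowest coordinate of IGF2BP3 in Mb (x axis, negative towards the 7p end), with members in red and other protein-coding genes of chromosome 7 in grey. Black lines are medians of position classes, at -0.13, -0.15 and -0.20 for the members and -0.07 and -0.08 up to 60 Mb; IGF2BP3 at -1.68 and ASNS at -1.35 lie outside the plotted range.

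At the position limit, values of single genes differed. NUPL2, a nuclear pore component, was 21.6, 20.8, 23.6 and 22.3 CPM in DMSO and 19.4, 16.1, 19.1 and 19.6 in Dox, all 4 lower. MALSU1, a factor of the mitochondrial ribosome and the member nearest IGF2BP3, was 38.2, 39.5, 34.7 and 36.6 CPM in DMSO and 38.1, 35.3, 35.4 and 35.4 in Dox, which overlap. MALSU1 shares 1521 exon bases with IGF2BP3 on the opposite strand, so its counts are uncertain unless the counting used strand. When siIGF2BP3 lowered IGF2BP3, MALSU1 had a log2 fold change of -0.004 ± 0.063 (SE). Just past the limit, TRA2A was at -0.16, CCDC126 at 0.01 and FAM221A at -0.34. At the count minimum, GPER1 (10.4 mean counts) and ISPD (12.85) inside it had changes of 0.03 ± 0.40 and -0.26 ± 0.34, and MRM2 (9.5) and GPR146 (9.175) outside it -0.15 ± 0.41 and 0.09 ± 0.35 (SE). None of these 4 can be placed on either side of 0 at this depth.

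The role lists below stand beside 58 of all 66 members below 0, at a median of -0.15, and no list was tested against the rest. The members that build or steer the actin cytoskeleton were 9, and 8 of them were below 0 (median -0.16). ACTB (ENSG00000075624, chr7:5527147-5563784), which encodes beta-actin, was the most abundant member per exon length, at 1653 CPM per kb. It read 6370, 6091, 6064 and 5956 CPM in sgIGF2BP3 DMSO and 5170, 5443, 5393 and 5706 in Dox. All 4 Dox libraries were lower, with a log2 fold change of -0.17 ± 0.03 (SE). ACTB has processed pseudogenes elsewhere in the genome, and how their reads were counted is not known here. RAC1 (ENSG00000136238, chr7:6374523-6403977), a GTPase that drives actin polymerisation at the cell edge, was at 94.5 CPM per kb. It went from 306, 310, 288 and 304 CPM in DMSO to 277, 272, 268 and 266 in Dox, again with no overlap (-0.16 ± 0.04). FSCN1, the actin-bundling protein fascin and next to ACTB in abundance at 150 CPM per kb, did not follow: 591, 556, 546 and 554 CPM in DMSO and 524, 540, 537 and 583 in Dox overlap (-0.04 ± 0.03).

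All 12 members in membrane trafficking and autophagy were below 0, with a median of -0.18. KDELR2 (ENSG00000136240, chr7:6445953-6484242), the receptor that returns proteins with a KDEL tail to the endoplasmic reticulum, read 153, 154, 153 and 161 CPM in DMSO and 134, 137, 137 and 129 in Dox (-0.21 ± 0.04). WIPI2 (ENSG00000157954, chr7:5190188-5233826), which acts in autophagosome formation, read 172, 170, 165 and 164 CPM in DMSO and 147, 158, 154 and 151 in Dox (-0.14 ± 0.03). TMEM106B (ENSG00000106460, chr7:12211241-12243367), a lysosomal membrane protein, went from 33.2, 32.7, 32.9 and 33.8 CPM to 28.2, 27.2, 28.7 and 21.1 (-0.34 ± 0.07). SNX13 (ENSG00000071189, chr7:17790761-17940501), a sorting nexin, went from 31.2, 31.0, 33.1 and 32.2 CPM to 26.6, 26.7, 28.1 and 23.1 (-0.29 ± 0.07). None of these 4 genes overlapped between Dox and DMSO, and replicate 4 was the lowest Dox library for TMEM106B, SNX13 and KDELR2. KDELR2 shares 376 exon bases with its neighbour DAGLB on the same strand, so reads there could count for either. CCZ1 at -0.37 ± 0.10 and its near-identical copy CCZ1B at -0.20 ± 0.11 are uncertain because reads could match both copies.

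Of the 7 members in RNA processing, translation and mitochondria, all 7 were below 0 (median -0.16). BZW2 (ENSG00000136261, chr7:16646131-16706523), which binds translation initiation factors, read 165, 162, 163 and 168 CPM in DMSO and 146, 134, 143 and 134 in Dox. Its groups did not overlap, and the change was -0.24 ± 0.04. NDUFA4, a subunit of the respiratory chain, was at -0.15 ± 0.04 with overlapping libraries.

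The largest list, transcription and chromatin, had 12 of 14 members below 0, at a median of -0.12. HDAC9 (ENSG00000048052, chr7:18086949-19002416), a histone deacetylase of class II, read 16.5, 14.7, 14.8 and 14.9 CPM in DMSO and 11.96, 12.1, 11.3 and 12.4 in Dox (-0.35 ± 0.08). CDCA7L (ENSG00000164649, chr7:21900900-21946084), a MYC-interacting nuclear protein, went from 69.0, 65.0, 67.6 and 63.0 CPM to 53.6, 57.4, 55.0 and 56.4 (-0.25 ± 0.05). Neither gene overlapped between Dox and DMSO. FOXK1, a forkhead transcription factor, overlapped at 138, 147, 132 and 141 CPM in DMSO and 136, 144, 126 and 141 in Dox (-0.03 ± 0.04). The zinc finger factors SP8 (0.29 ± 0.22) and SP4 (0.15 ± 0.12) were above 0 with overlapping libraries and mean levels of at most 7.08 CPM in either group.

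The smaller lists held 4 of 5 glycosylation and secretory genes below 0 (median -0.18), 4 of 5 ubiquitin genes (-0.08), 3 of 4 signalling genes (-0.09), 3 of 3 for genome maintenance and the nuclear envelope (-0.15) and 2 of 2 for cilia (-0.18). DNAAF5 (ENSG00000164818, chr7:726701-786475), needed to assemble ciliary dynein arms, read 101, 95.3, 100 and 99.4 CPM in DMSO and 89.4, 86.9, 81.7 and 87.8 in Dox (-0.19 ± 0.04). It shares 383 exon bases with PRKAR1B on the opposite strand. ANKMY2, which was in no list, went from 24.5, 22.97, 24.1 and 25.6 CPM to 20.5, 18.3, 18.6 and 20.6 (-0.31 ± 0.07). Both DNAAF5 and ANKMY2 were lower in all 4 Dox libraries.

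The 2 members that were higher in all 4 Dox libraries were both low in level. TSPAN13, a tetraspanin, read 1.88, 2.00, 1.91 and 1.86 CPM in DMSO and 2.99, 2.52, 2.13 and 2.15 in Dox (0.34 ± 0.21). PDGFA, a growth factor ligand and the member nearest the chromosome end, read 4.57, 4.54, 5.37 and 4.89 CPM in DMSO and 5.54, 5.43, 5.71 and 6.59 in Dox (0.27 ± 0.14).

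The other 8 groups gave 5 comparisons that were not used to propose the members. They ask whether members also move when Cas9 is induced with other guides, under siRNA against IGF2BP3 or IGF2BP2, or between 2 lines without Dox. The member medians of the 5 ran from -0.013 to 0.035 on the log2 scale, against -0.15 in sgIGF2BP3 Dox, and no test of a shift over the members was run. The share of members below 0 was farthest from that of all genes tested after siIGF2BP3 (39 of 66, 59.1%, against 49.3%) and in sgIGF2BP2 Dox (27 of 66, 40.9%, against 47.6%). Among the 40 members that share no exon base the medians were 0.0434 for sgAAVS1 Dox and -0.0568 for siIGF2BP2.

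In the sgAAVS1 line under Dox the members had a median of 0.007, with 32 of 66 below 0. By edgeR's quasi-likelihood test 8 members rose (7.25% of all genes tested) and 7 fell (8.68%). HDAC9 rose from 13.3, 13.5, 12.5 and 13.4 CPM to 19.4, 14.9, 20.6 and 18.8, a log2 fold change of 0.49 ± 0.08 (adjusted p = 5.88e-06, edgeR). TSPAN13 rose by 0.89 ± 0.21 (adjusted p = 0.00126, edgeR), from 0.985, 1.83, 1.91 and 2.06 CPM to 3.24, 2.47, 3.40 and 3.64. Both genes were higher in all 4 Dox libraries. FSCN1 fell from 589, 586, 558 and 548 CPM to 493, 493, 505 and 499 (-0.20 ± 0.03, adjusted p = 5.17e-06, edgeR). DNAAF5 (-0.19), BRAT1 (-0.17), CDCA7L (-0.13), INTS1 (-0.11), ACTB (-0.11) and BZW2 (-0.10) also fell. Without sgAAVS1 Dox replicate 4 the 15 calls became 9. The call of ACTB was lost without DMSO replicate 2 or Dox replicate 4, and those of INTS1, BZW2 and CDCA7L were lost on leaving out any 1 of 5 or 6 of the 8 libraries.

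The sgIGF2BP2 line under Dox had a member median of 0.035, or 0.014 without its replicate 2. There 5 members rose (10.0% of all genes tested) and 6 fell (10.4%), and 3 rose and 6 fell without that replicate. Among the 6 falls, KDELR2 and CCZ1 were then replaced by NUDT1 and ANKMY2. HDAC9 rose again, from 13.3, 13.1, 13.6 and 14.1 CPM to 20.2, 20.9, 19.3 and 19.7 (0.57 ± 0.08, adjusted p = 5.1e-08, edgeR). C1GALT1, the core O-glycan galactosyltransferase, rose by 0.26 ± 0.08 (adjusted p = 0.0178, edgeR), but the call was lost without DMSO replicate 3 or 4 or Dox replicate 2 or 4. CDCA7L fell by 0.21, DNAAF5 by 0.19, ACTB by 0.14 and FSCN1 by 0.13 on the log2 scale. Without Dox replicate 2 these 5 calls remained, with HDAC9 at 0.54 ± 0.09 (adjusted p = 1.76e-06, edgeR), CDCA7L at -0.21, DNAAF5 at -0.23, ACTB at -0.19 and FSCN1 at -0.14. The sgIGF2BP2 and sgAAVS1 Dox effects did not pass a test of their difference for any named member, beside 797 of the 11428 genes that did. For HDAC9 that difference was 0.08 ± 0.11 (adjusted p = 0.745, edgeR). Without Dox replicate 2, a setting chosen after seeing the data, 731 of 11461 genes and 0 named members passed, and HDAC9 was at 0.05 ± 0.12 (adjusted p = 0.853, edgeR).

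Several members thus had opposite signs in the sgIGF2BP3 line and in the other lines. HDAC9 was lower in all 4 Dox libraries of sgIGF2BP3 (-0.35) and higher in all 4 of sgAAVS1 and of sgIGF2BP2. WIPI2 was at -0.14 in sgIGF2BP3 and rose by 0.13 in sgAAVS1 and 0.10 in sgIGF2BP2 (0.07 and not called without Dox replicate 2). TMEM106B (-0.34 against 0.23) and SNX13 (-0.29 against 0.20) were opposite between sgIGF2BP3 and sgAAVS1, while in sgIGF2BP2 their libraries overlapped. The sgIGF2BP2 call of WIPI2 and the sgAAVS1 call of SNX13 were each lost on leaving out any 1 of 5 of the 8 libraries, and the sgAAVS1 call of TMEM106B without DMSO replicate 2 or 3 or Dox replicate 3. ACTB, DNAAF5 and CDCA7L were lower after Dox in all 3 lines, at -0.17, -0.19 and -0.25 in sgIGF2BP3. KDELR2 and CCZ1 were called lower in sgIGF2BP2 too, though not without Dox replicate 2 (-0.11 and -0.26). ANKMY2 was lower in all 4 Dox libraries of sgIGF2BP2, and without replicate 2 it was called (-0.22). After siIGF2BP3, KDELR2 was lower in all 4 libraries as well but was not called. The differences that involve the sgIGF2BP3 Dox comparison were not tested, since the members were proposed with it in view.

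**Figure D4:**
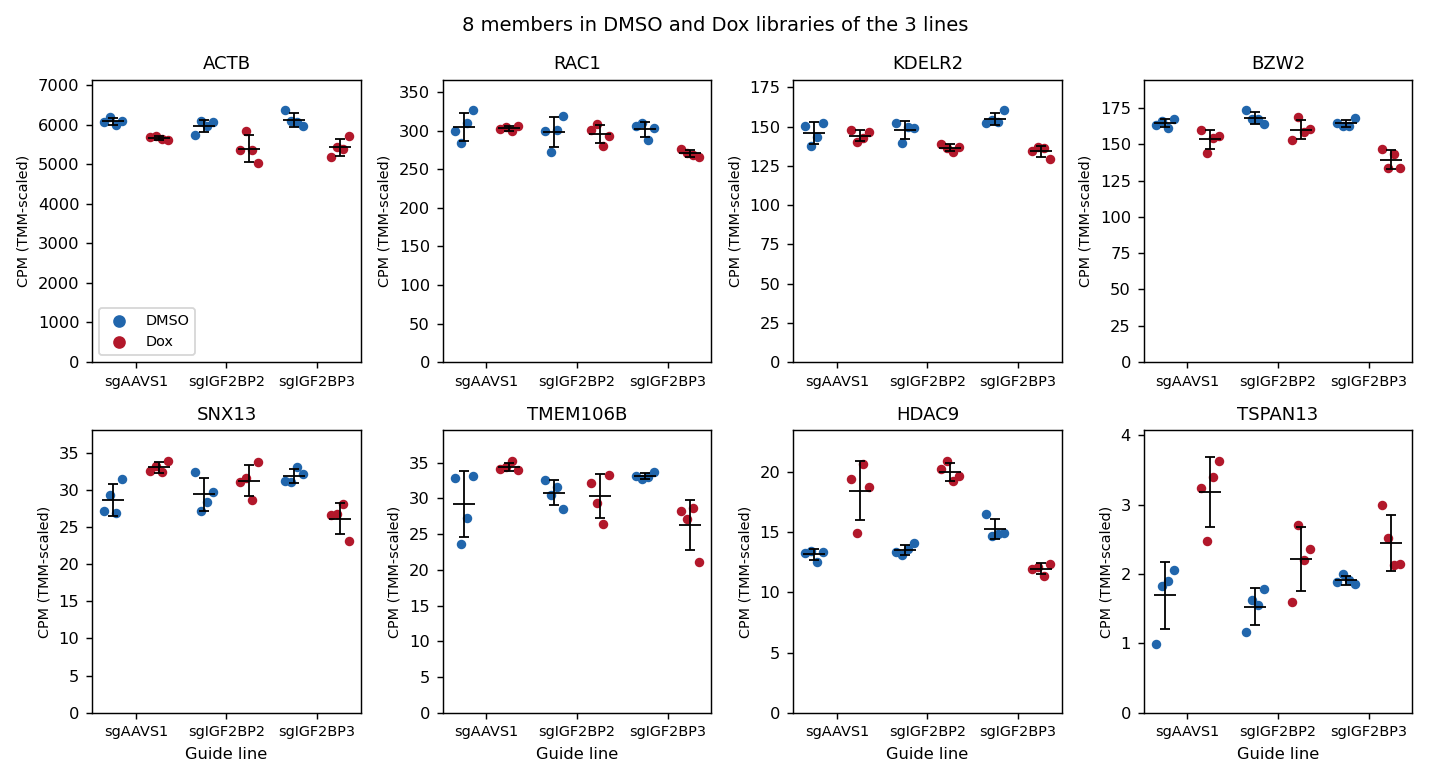
TMM-scaled CPM (y axis, from 0) of 8 members in the DMSO (blue) and Dox (red) libraries of the 3 guide lines (x axis), with group means and SD (n = 4). HDAC9 moves up with Dox in sgAAVS1 and sgIGF2BP2 and down in sgIGF2BP3, whereas ACTB is lower after Dox in each line.

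When IGF2BP3 was lowered by siRNA, 1 member was called (1.52%), beside 2.34% of all genes tested. The median after siIGF2BP3 was -0.013, and 0 members rose (0.936% of all genes tested) while BZW2 alone fell (1.40%). BZW2 went from 167, 159, 164 and 166 CPM in siControl to 147, 147, 148 and 149, all 4 lower, a log2 fold change of -0.15 ± 0.04 (adjusted p = 0.00667, edgeR). An unadjusted p under 0.05 (edgeR) was reached by 4 members (6.06%), where chance gives about 1 in 20, and DESeq2 also called 1. The fitted change of IGF2BP3 itself was -2.78 in that comparison and -1.68 under Dox.

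After siIGF2BP2 in sgIGF2BP2 cells, 6 members rose (18.4% of all genes tested) and 11 fell (18.4%), with a median of 0.013. FOXK1 fell from 137, 142, 147 and 153 CPM to 106, 99.9, 93.9 and 105 (-0.51 ± 0.04, adjusted p = 2.57e-16, edgeR). TWISTNB, an RNA polymerase I subunit, fell from 46.8, 48.1, 48.0 and 46.3 CPM to 36.5, 36.03, 36.4 and 35.4 (-0.39 ± 0.06, adjusted p = 2.99e-08, edgeR). ETV1, an ETS transcription factor, rose from 7.96, 9.64, 9.38 and 9.57 CPM to 12.6, 14.2, 11.9 and 12.5 (0.49 ± 0.10, adjusted p = 4e-05, edgeR). IQCE, a ciliary protein, rose by 0.39 ± 0.06 and MICALL2, an actin-linked adaptor, by 0.32 ± 0.07. The groups of all 5 genes did not overlap. BZW2 fell here too, by 0.14 ± 0.04 on the log2 scale. Without siIGF2BP2 replicate 3, 6 members rose and 12 fell, with a median of -0.006. The calls of these 6 genes remained, with FOXK1 at -0.48, TWISTNB at -0.40, ETV1 at 0.53, IQCE at 0.40, MICALL2 at 0.33 and BZW2 at -0.15.

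The effects of the 2 siRNA pools differed for 6 of the 50 named members by edgeR's test of the difference, beside 2137 of 11428 genes. They are FOXK1, TWISTNB, ETV1, IQCE, MICALL2 and WIPI2, and none of the 6 was called after siIGF2BP3. All but WIPI2 were on the named list for the size of their siIGF2BP2 calls, in the same libraries. The count of 6 is therefore not a result about the members. Without siIGF2BP2 replicate 3, a setting also chosen after seeing the data, all 6 still passed, beside 2038 of 11467 genes. FSCN1 (0.12 ± 0.05, adjusted p = 0.0445, edgeR) and RAC1 (0.16 ± 0.06, adjusted p = 0.0451, edgeR) then passed as well. Between the siControl libraries of the sgIGF2BP3 and sgIGF2BP2 lines, which are also the controls of the 2 siRNA comparisons, edgeR and DESeq2 called 0 members (0.0175% of all genes tested in either direction). An unadjusted p under 0.05 was reached there by 5 members, and the median was 0.011.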

How the data were processed

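The authors deposited whole-number read counts per gene for 40 poly(A) libraries, unnormalised, with a directional kit per the labels' protocols. bcl2fastq 2.20.0.422, STAR 2.7.5c and hg38 are named in the submitters' processing notes. The counting tool, annotation and strand setting are not given in the sources used here, and all RNA of a gene was counted, new and old. Of the 19962 identifiers, 19847 matched GENCODE 29 (GRCh38), which gave symbols, positions and exons. The members and role lists were chosen with earlier results of these data known.

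edgeR's filterByExpr, run by group, left 11428 genes, and libraries were scaled by TMM (factors 0.978 to 1.03). The quasi-likelihood test of edgeR 4.0.16 (R 4.3.3) was fitted to all 40 libraries with a coefficient per group. Each standard error is the log2 fold change divided by the square root of F. The biological coefficient of variation was 3.79%, and a change below its standard error cannot be resolved at this depth. Per-library medians used log2(CPM + 0.1). The code was tested on simulated counts. Alternatives were DESeq2 1.42.0, no count filter, a replicate block, the 2 groups alone, each library left out, members sharing no exon base (40 of 66), and a 1.2-fold minimum change. The 2 tests of a difference between effects were also run without a library that stood apart, chosen after seeing the data.

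Named genes were IGF2BP3, the 12 members of highest mean CPM, the 8 lowest and 8 highest changes in sgIGF2BP3 Dox at a mean of at least 1 CPM, up to 4 called rises and 4 falls in each other comparison, the 3 members at each end, up to 3 per role list, and genes beside the rule's limits. SNX8, GNA12, ZDHHC4, CCZ1B, AIMP2 and ASNS were named after their values were seen. The marker lists were epithelial (EPCAM, CDH1, KRT8, KRT18, KRT19), intestinal (CDX2, VIL1, KRT20), leukocyte (PTPRC, CD3E, CD68), endothelial (PECAM1) and fibroblast (COL1A1, COL1A2, DCN).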

Additional observations from a re-analysis of the deposited data

Results flagged for a closer look

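Of 200 groups of 4 libraries checked for 1 library far from the rest (18 members shown by library and 2 member scores, in 10 groups), 7 held one, and chance gives about 1 in 20. In the sgIGF2BP3 line, HDAC9 was 16.48 CPM in DMSO replicate 1, above 14.67 to 14.95 in the others, NUPL2 was 16.07 in Dox replicate 2, below 19.09 to 19.62, and MALSU1 was 38.08 in Dox replicate 1, above 35.28 to 35.45. Under siIGF2BP3, WIPI2 was 150.7 CPM in replicate 4 (others 159.1 to 159.4), FSCN1 was 634.0 in replicate 4 (others 584.9 to 593.2) and C1GALT1 was 25.14 in replicate 1 (others 20.85 to 21.43). ANKMY2 was 26.40 CPM in sgIGF2BP2 DMSO replicate 1, against 24.85 to 24.92.

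The effect of siIGF2BP3 minus that of siIGF2BP2 passed edgeR's test of the difference for 6 named members, beside 2137 of 11428 genes. The difference on the log2 scale was 0.56 ± 0.06 for FOXK1 (adjusted p = 1.42e-11), 0.46 ± 0.08 for TWISTNB (adjusted p = 5.52e-06) and 0.15 ± 0.05 for WIPI2 (adjusted p = 0.021). It was -0.60 ± 0.15 for ETV1 (adjusted p = 0.00159), -0.33 ± 0.08 for IQCE (adjusted p = 0.00136) and -0.35 ± 0.10 for MICALL2 (adjusted p = 0.00694). Each ± is a standard error. Without siIGF2BP2 replicate 3, which stood apart from its group, the 6 differences ran from -0.63 (ETV1) to 0.53 (FOXK1) and all passed.

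In 4 named members every sgIGF2BP3 Dox library was below every DMSO library while every Dox library of another line was above its DMSO libraries. The 4 are HDAC9 (-0.35, with 0.49 in sgAAVS1 and 0.57 in sgIGF2BP2), WIPI2 (-0.14, with 0.13 and 0.10), TMEM106B (-0.34, with 0.23 in sgAAVS1) and SNX13 (-0.29, with 0.20 in sgAAVS1). AIMP2, not among the members named by rule, did the same with sgIGF2BP2 as the other line. These differences were not tested, and the share of all genes tested with this pattern was not counted.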

How the results depend on the processing

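The member median of sgIGF2BP3 Dox stayed between -0.160 and -0.144 with each library left out, and its count of calls, 18, was 11 to 14 then, 22 with no count filter, 23 with the 2 groups alone, 10 among the 40 members that share no exon base (fewer members) and 0 against a 1.2-fold change. With a library left out, the counts were 9 to 14 for sgAAVS1 Dox (15 with all), 9 to 12 for sgIGF2BP2 Dox (11), 1 for siIGF2BP3 (1), 14 to 18 for siIGF2BP2 (17) and 0 between the siControl lines (0). The medians then ran from -0.014 to 0.026, from 0.014 to 0.058, from -0.0190 to 0.00181, from -0.0248 to 0.00810 and from 0.003 to 0.020 in that order, so the signs near 0 are not fixed. Against a 1.2-fold change the counts were 0 for sgAAVS1 Dox, 1 for sgIGF2BP2 Dox (HDAC9), 0 for siIGF2BP3 and 1 for siIGF2BP2 (FOXK1). Among members sharing no exon base, sgIGF2BP2 Dox had 5 calls and siIGF2BP3 had 0, and the medians were 0.0434 for sgAAVS1 Dox and -0.0568 for siIGF2BP2; the cause was not tested. Of 41 calls of named members outside sgIGF2BP3 Dox, 22 held in every alternative but the 1.2-fold test, and none changed sign. For these alternative counts of calls, shares of all genes tested were not taken.

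Replicate numbers are shared between groups in the labels, but same-numbered libraries did not deviate together (r from -0.0896 to 0.0875 over 24 pairs), and 4 of 24 libraries correlated best with their own number. With a replicate block the counts of calls were 19 for sgIGF2BP3 Dox, 16 for sgAAVS1 Dox, 11 for sgIGF2BP2 Dox, 1 for siIGF2BP3, 19 for siIGF2BP2 and 0 between the siControl lines, and the member median of sgIGF2BP3 Dox was -0.154.

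Depth limited the 22 members under 300 mean counts, and DNA copy number was not measured.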
